A study of Arabidopsis thaliana with 8 samples.

Results

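The 62 transcripts described here are the brightest of those that an Arabidopsis thaliana array could assign to 1 gene in plants under red light. The array held 3439 probes, and the platform annotation lists exactly 1 gene for 692 of them. From these the rule takes the 69 probes, 1 in 10, with the highest mean over all 8 deposited values. The rule then leaves out LHB1B2, PSAN, PSBY, PSBW, AT1G74470, AT3G26630 and AT4G39690, all 7 of which lay among the 69, so 62 probes for 62 different loci remain. Brightness itself chose them, so their levels are a description and carry no test. Just inside the limit lay AT2G46630, AT4G22370 and AT3G32930 with mean deposited intensities of 1.24, 1.23 and 1.22, and just outside lay AT3G06570, HEMA3 and AT4G17440 with 1.21, 1.20 and 1.20.

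All plants were wild type, of the Landsberg ecotype, and were kept in red light for 48 hours, one group at 20 µE and the other at 200 µE. Each group had 4 arrays of total RNA, numbered 1 to 4 in the labels. The question put to these transcripts is how they stand in bright against dim red light. The labels give no tissue, age, mutation or added agent, no area or time unit for µE, and no statement that replicates are separate plants. The p-values therefore cover the spread among these arrays alone, and that spread may be technical.

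Red light is absorbed both by chlorophyll, which drives photosynthesis, and by the phytochromes, photoreceptors that switch many nuclear genes on or off. In bright light plants commonly hold less light-harvesting antenna and more capacity for electron transport and carbon fixation than in dim light. The brightness of a probe depends on the amount of its transcript and also on how well that probe binds, so the order of the probes is not an order of transcript abundance. In such bulk RNA, fewer cells of a type and less RNA per cell cannot be told apart.

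The deposited intensities have a ceiling near 100 on each array, reached by 1 to 4 probes per array, and a floor of 0. The median of the positive values was 0.267 to 0.345 at 20 µE and 0.513 to 0.578 at 200 µE. To take out such differences between whole arrays, intensities were quantile normalized, which gives every array the same distribution of values, and compared on the log2 scale by limma over all 3439 probes (difference: 200 minus 20 µE, Benjamini-Hochberg adjusted p under 0.05). Normalized differences are therefore relative to the rest of the array, and deposited values are given beside them. Arrays of replicates 1 and 2 were alike, as were those of replicates 3 and 4, and these are called the 2 sets. Over the 62 probes, the median absolute log2 difference between such like arrays of 1 light level was 0.098 to 0.115, against 0.411 to 0.683 between the sets and 0.292 to 0.491 between the light levels at the same replicate number. None of the 19 marker genes fixed for green tissue, root, seed or senescence had a single-gene probe, so the tissue could not be checked.

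Bright red light went with few called changes among these probes, and with no common direction. AT4G27250 and AT4G19900 rose, and AT5G26850, AT1G13990, AT5G11010 and AT3G09080 fell, relative to the other probes. These 6 are 9.68% of the 62, against 6.83% of all 3439 probes called in the same fit, which is near that background. Of all probes 2.3% were called higher and 4.54% lower. The median log2 difference of the 62 was −0.03, against 0.00 over all probes and −0.04 over the probes above 0 on every array. With the replicate number as a block, 16 of the 62 (25.8%) were called, 8 higher and 8 lower, where 18.0% of all probes were called. When the arrays of replicates 1 and 2 were averaged, and likewise 3 and 4, no call was left among the 62 by limma. Of all 3439 probes 6 were called (0.174%). In that fit 5 of the 62 had an unadjusted p by limma under 0.05, a level that chance alone gives in about 1 in 20. The share of all probes at that level was not counted.

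**Figure D1:**
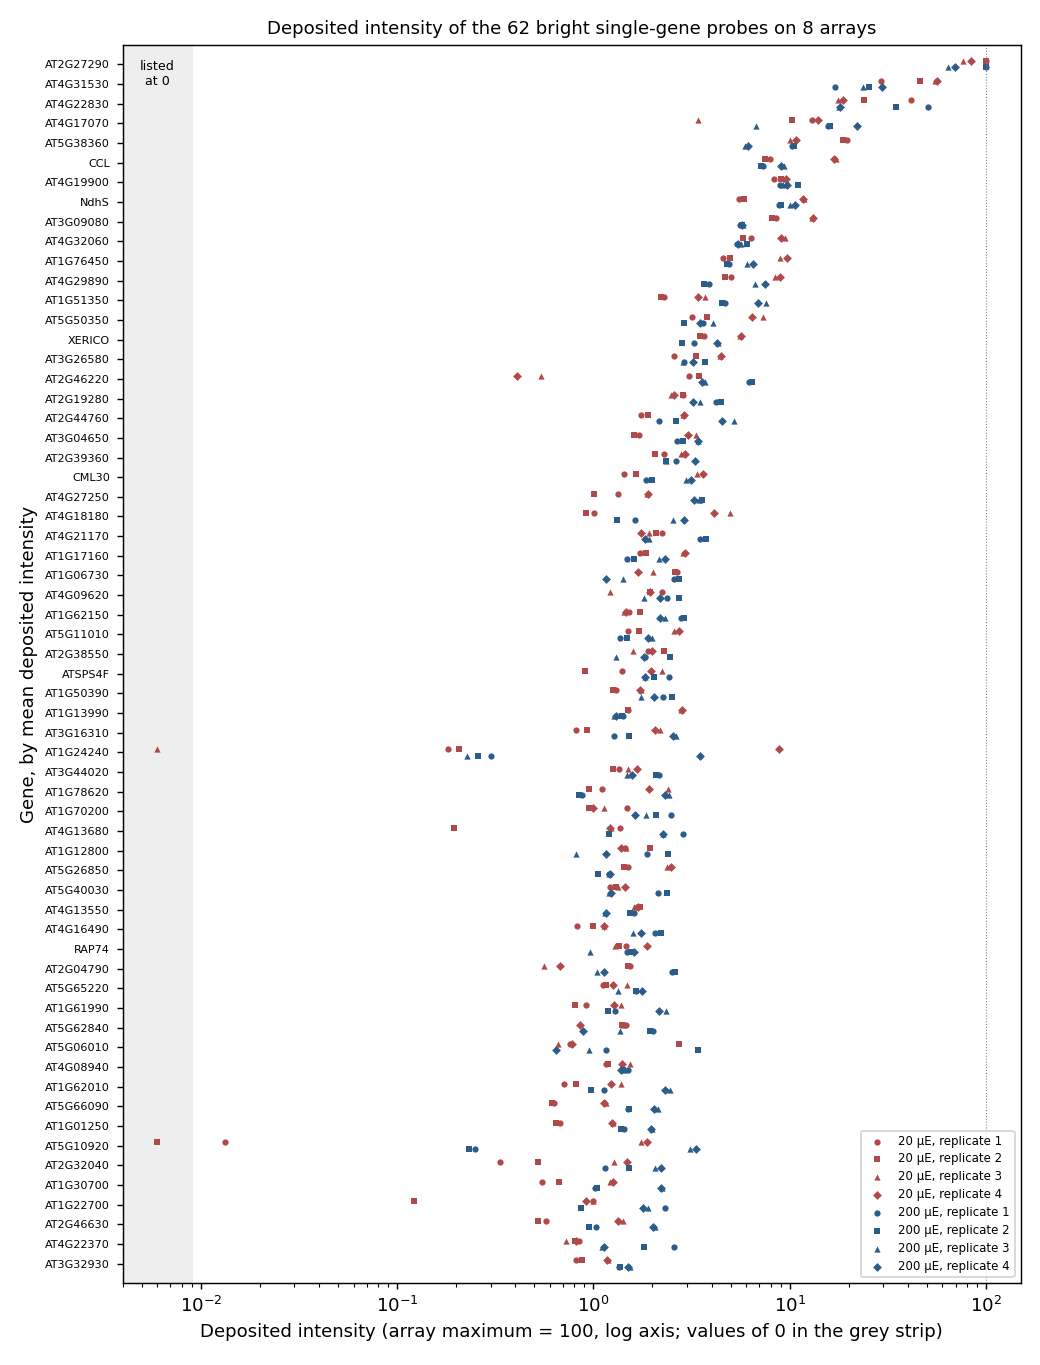
Deposited intensity (log axis, array maximum 100) of each of the 62 probes on the 4 arrays at 20 µE (red) and the 4 at 200 µE (blue), with a marker shape per replicate and genes ordered by mean. Most rows are tight, AT2G27290 sits at the ceiling on 4 arrays, and AT1G24240 and AT5G10920 spread from a value listed at 0 to above 1.

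The roles named below are background from general knowledge of these loci, because the gene table used here holds names without descriptions. It gives a symbol other than the locus to 6 of the 62, and the keyword rules for function classes placed 2 of them, NdhS and CML30, and left 60 unclassed. A role was given to 40, in groups put together after the values had been seen. The other 22 are left without a role, and not all of them are named below. That does not mean that no role is known for them, so the group counts may be too low. The groups hold 17 enzymes, 9 proteins of RNA handling or the ribosome, 7 of signalling, 4 of photosynthesis and 3 of transport. The count for photosynthesis is low by construction, since the rule leaves out 2 photosystem II subunits, 1 photosystem I subunit, 1 antenna protein and geranylgeranyl reductase.

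The brightest probe was that of AT2G27290. At 20 µE its deposited intensity was 100, 100, 76.6 and 84.1 in replicates 1 to 4. At 200 µE it was 100, 100, 64.3 and 69.7. Replicates 1 and 2 thus stood at the array maximum in both light levels, where no difference can be read, and the 200 µE arrays were lower in replicates 3 and 4. It held rank 1 on the 4 arrays at the maximum and rank 5 on the other 4, so its quantile-normalized difference was 0.00 by construction.

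AT4G31530, a protein with a NAD(P)-binding fold, was second in brightness. Its deposited intensities were 29.2, 46.2, 54.8 and 56.4 at 20 µE and 17.1, 25.3, 23.6 and 29.4 at 200 µE. Every 200 µE array was below its same-numbered partner, and the groups overlapped only between the lowest 20 µE array and the highest 200 µE array. The normalized log2 difference was −0.90 ± 0.22 (SE, adjusted p by limma = 0.0677, or 0.0113 blocked by replicate number). In the deposited values, where 1.28% of all probes were called lower, it was −0.95 (adjusted p by limma = 0.0464). It was −1.79 with median centring (adjusted p by limma = 0.00847) and −0.51 with cyclic loess (adjusted p by limma = 0.399).

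AT5G38360, an α/β hydrolase, showed a similar order, with 19.6, 18.8, 10.03 and 10.7 at 20 µE and 10.3, 10.6, 5.92 and 6.11 at 200 µE in the deposited values. Each 200 µE array was again below its partner, but replicates 3 and 4 at 20 µE lay level with replicates 1 and 2 at 200 µE, so the groups overlapped. The log2 difference was −0.61 ± 0.37 (SE, adjusted p by limma = 0.457, or 0.0375 blocked by replicate number).

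AT4G17070, a peptidyl-prolyl isomerase family protein that helps other proteins fold, was higher on every 200 µE array than on its partner. The deposited values were 12.9, 10.2, 3.40 and 13.9 at 20 µE and 15.8, 16.1, 6.76 and 22.1 at 200 µE. Replicate 3 was the low array in both light levels, and the groups overlapped. The log2 difference of 0.82 ± 0.52 (SE) did not pass (adjusted p by limma = 0.498). CCL, whose transcript is known for its clock-controlled short life, had deposited values of 7.94, 7.44, 17.2 and 16.8 at 20 µE and 7.29, 7.14, 9.39 and 8.999 at 200 µE. Replicates 3 and 4 at 20 µE stood above all other arrays. Its log2 difference was −0.17 ± 0.28 (SE, adjusted p by limma = 0.867).

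Of the 17 enzymes, 2 passed the limma threshold and both rose, where 2.3% of all probes were called higher and 4.54% lower. The group as a whole did not rise. Put together after its values were seen, it had a median of −0.22. A normalized difference below 0 was seen for 10 of the 17, against 45.9% of all probes, with those listed at 0 on some arrays included. AT4G27250, a protein with a NAD(P)-binding fold like that of AT4G31530, had deposited intensities of 1.34, 1.01, 1.87 and 1.89 at 20 µE. At 200 µE the values were 3.53, 3.57, 3.44 and 3.27. The groups were far apart in deposited and in normalized values, and all 4 pairs were higher at 200 µE. The normalized log2 difference was 0.92 ± 0.10 (SE, adjusted p by limma = 0.00321), a 1.90-fold rise, and leaving out any 1 array kept the call. Each array has a like array in its set, so these fits cannot show whether the call holds across the sets. With the arrays of each set averaged, it did not pass (adjusted p by limma = 0.306). Median centring reduced the difference to 0.38 and ended the call (adjusted p by limma = 0.318), and replicates 1 and 2 alone did not pass either, at 1.08 (adjusted p by limma = 0.0730).

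AT4G19900, of a glycosyltransferase family, had deposited values of 8.37, 9.03, 9.41 and 9.57 at 20 µE and 8.93, 11.04, 9.27 and 9.73 at 200 µE, which overlap. It passed only relative to the other probes, with normalized values of 8.01, 8.88, 8.01 and 7.76 against 9.70, 13.3, 11.2 and 10.9. The log2 difference was 0.46 ± 0.10 (SE, adjusted p by limma = 0.0472). This call ended in 7 of the 8 fits that leave out 1 array, that without replicate 1 at 200 µE being the exception, and median centring turned it around, to −0.75 with an adjusted p by limma of 0.0362. Without normalization it was 0.10 and with cyclic loess 0.24, and neither passed (adjusted p by limma = 0.575 and 0.255).

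The other 15 enzymes had log2 differences from −0.90 (AT4G31530) to 3.003 (AT5G10920), and none passed. AT4G13550, a lipase, had deposited values of 1.68, 1.72, 1.61 and 1.68 at 20 µE and 1.61, 1.54, 1.14 and 1.17 at 200 µE. The 20 µE arrays were almost equal and the 200 µE arrays lay level with or below them. Its log2 difference was −0.79 ± 0.24 (SE, adjusted p by limma = 0.125, or 0.0309 blocked by replicate number). AT1G17160, of the pfkB family of sugar kinases, had −0.58 ± 0.16 (SE, adjusted p by limma = 0.101, or 0.0141 blocked by replicate number), with normalized groups that did not overlap. ATSPS4F, a sucrose-phosphate synthase, which makes the precursor of sucrose, was at −0.06 ± 0.21 (SE, adjusted p by limma = 1). Its deposited values were 1.40, 0.910, 2.24 and 1.95 at 20 µE and 2.42, 2.03, 1.83 and 1.82 at 200 µE, so it was higher at 200 µE in replicates 1 and 2 and lower in replicates 3 and 4. AT4G29890, related to choline monooxygenases, was at −0.22 ± 0.33 (SE, adjusted p by limma = 0.842).

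**Figure D2:**
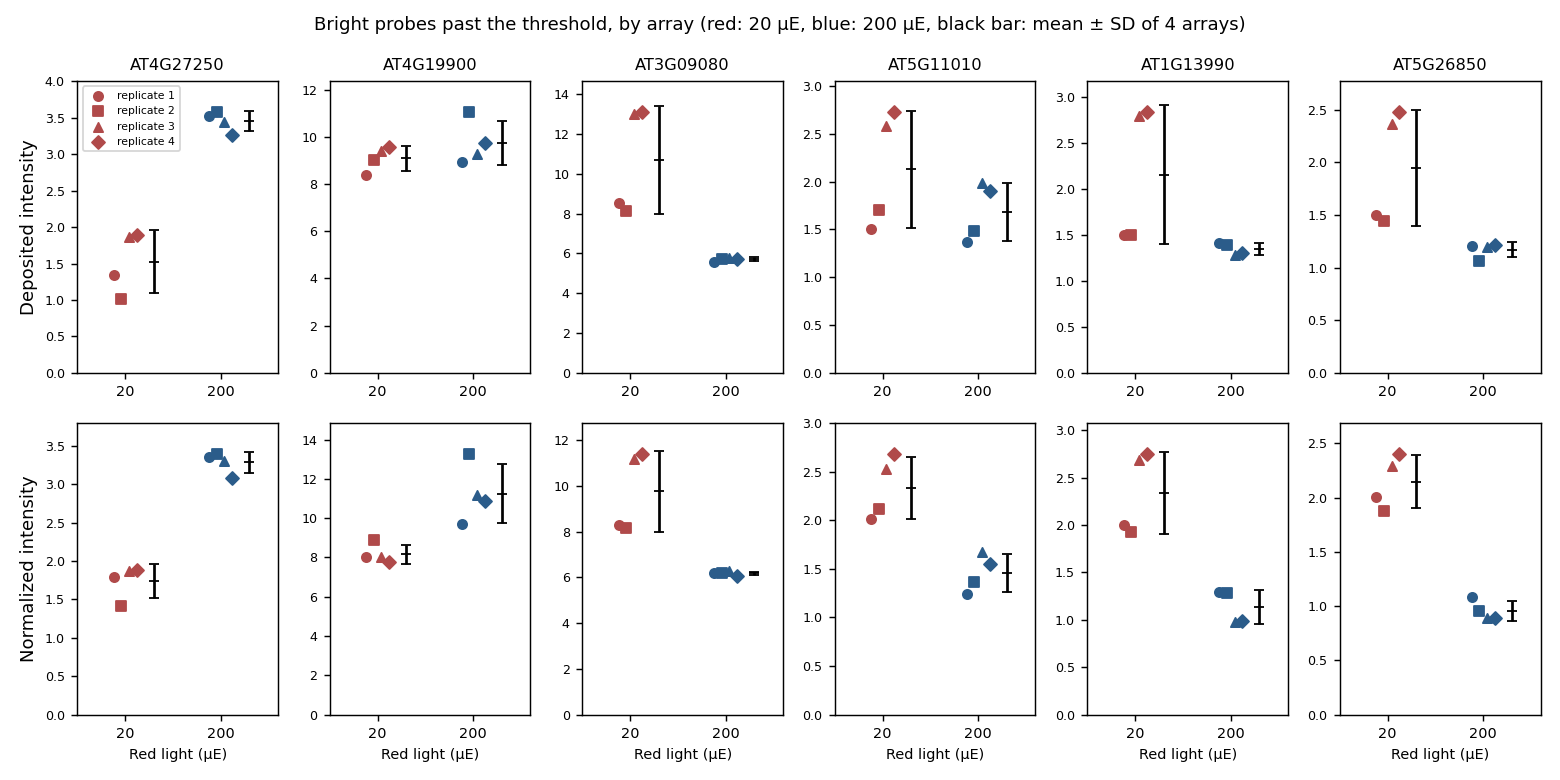
Intensity of the 6 probes past the limma threshold on each array, deposited in the upper panels and quantile normalized in the lower ones, with marker shapes for replicates and mean ± SD of 4 arrays in black. The light levels are apart in every lower panel, while deposited values of AT4G19900 and AT5G11010 overlap.

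The 4 falls were all of loci for which no role is given here. AT3G09080 had deposited intensities of 8.51, 8.14, 13.0 and 13.1 at 20 µE. At 200 µE they were 5.56, 5.73, 5.78 and 5.72. The 200 µE arrays were nearly identical and all lay below the 20 µE arrays, in deposited as in normalized values. The normalized log2 difference was −0.64 ± 0.13 (SE, adjusted p by limma = 0.0339, or 0.0503 blocked by replicate number), and the deposited difference of −0.87 passed too (adjusted p by limma = 0.027), as did −1.71 with median centring (adjusted p by limma = 0.00437). Its call ended in 6 of the 8 fits without 1 array, those without replicate 3 or 4 at 20 µE or any of the 4 arrays at 200 µE, where the adjusted p by limma was at most 0.0968.

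AT5G26850 showed the largest called fall. Its deposited values were 1.501, 1.44, 2.36 and 2.47 at 20 µE and 1.21, 1.06, 1.20 and 1.21 at 200 µE, with no overlap. The log2 difference was −1.16 ± 0.10 (SE, adjusted p by limma = 0.00154), and leaving out any 1 array kept the call. A like array of the same set stays in each such fit, so these fits cannot show whether the call holds across the sets. With the arrays of each set averaged, AT5G26850 did not pass (adjusted p by limma = 0.318). Its deposited difference of −0.69 did not pass (adjusted p by limma = 0.0647). AT1G13990 had 1.5, 1.502, 2.8 and 2.84 at 20 µE and 1.42, 1.39, 1.28 and 1.31 at 200 µE. Here too the groups were apart, by a narrow gap in replicates 1 and 2 and a wide one in replicates 3 and 4. Its log2 difference was −1.04 ± 0.17 (SE, adjusted p by limma = 0.0178, or 0.0639 blocked by replicate number), and leaving out replicate 3 or 4 of either light level ended the call (limma, adjusted p up to 0.0547). Its deposited difference was −0.61 and did not pass (adjusted p by limma = 0.130).

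AT5G11010 had deposited values of 1.503, 1.7, 2.58 and 2.73 at 20 µE and 1.37, 1.49, 1.99 and 1.91 at 200 µE, which overlapped. Each 200 µE array was below its partner. In normalized values the groups were apart, with a log2 difference of −0.68 ± 0.13 (SE, adjusted p by limma = 0.0321, or 0.00971 blocked by replicate number). The call was lost in 6 of the 8 fits without 1 array, with replicate 1 at 20 µE and replicate 3 at 200 µE as the exceptions (limma, adjusted p up to 0.0906). The deposited difference of −0.31 did not pass (adjusted p by limma = 0.352), nor did −0.62 with cyclic loess (adjusted p by limma = 0.0561), while median centring gave −1.15 (adjusted p by limma = 0.0150).

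AT1G51350, with no role given, lay at the edge of the threshold. It had deposited values of 2.28, 2.22, 3.71 and 3.43 at 20 µE and 4.67, 4.54, 7.55 and 6.90 at 200 µE. Both scales kept the groups apart, and each array at 200 µE exceeded its partner, with a mean fold of 2.13 in normalized values. The log2 difference was 1.09 ± 0.25 (SE, adjusted p by limma = 0.0541, or 0.0226 blocked by replicate number), and 1.03 in the deposited values (adjusted p by limma = 0.0369), where 25.7% of all probes were called higher. With median centring it was 0.18 (adjusted p by limma = 0.625). AT5G66090 was likewise apart on both scales, at 0.54 ± 0.15 (SE, adjusted p by limma = 0.11, or 0.00807 blocked by replicate number). AT5G50350 had −0.52 ± 0.21 (SE, adjusted p by limma = 0.248).

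None of the 4 photosynthesis genes passed the limma threshold. NdhS, a subunit of the chloroplast NDH complex that takes electrons from ferredoxin, had deposited intensities of 5.52, 5.85, 11.8 and 11.8 at 20 µE. At 200 µE they were 8.86, 9.04, 10.1 and 10.7. The 200 µE arrays lay between the sets of the 20 µE arrays, so the deposited difference changed sign between replicates 1 and 2 and replicates 3 and 4. In normalized values all 4 pairs were higher at 200 µE, with a mean log2 change of 0.53 ± 0.22 (SE, adjusted p by limma = 0.284, or 0.042 blocked by replicate number). With median centring the difference was −0.61.

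AT4G22830, a Ycf49-like protein, had 41.7, 23.9, 17.7 and 18.7 at 20 µE and 50.7, 35.0, 17.8 and 18.1 at 200 µE in the deposited values. Replicates 3 and 4 were level between the light levels. AT1G76450, of the PsbP family whose founding member is part of the oxygen-evolving complex of photosystem II, had a log2 difference of −0.11 ± 0.19 (SE, adjusted p by limma = 0.875). AT1G22700, needed for the accumulation of photosystem I, had 0.91 ± 0.68 (SE, adjusted p by limma = 0.584). Its deposited values were 0.999, 0.121, 0.991 and 0.916 at 20 µE and 2.32, 0.865, 1.89 and 1.79 at 200 µE, so replicate 2 was the low array in both light levels.

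Among the 9 genes of RNA handling and the ribosome, none passed and 3 had a normalized difference below 0. Of all probes, with those listed at 0 on some arrays included, 45.9% did. The group, put together after its values were seen, had a median of 0.20, and 0.65 in the deposited values, where that of all probes was 0.99. With median centring AT2G19280, AT1G62150, AT1G70200, AT1G61990 and AT1G62010 lay below 0, from −0.34 to −0.02. AT2G19280, of the pentatricopeptide repeat family, which binds organelle RNA, had 0.34 ± 0.17 (SE, adjusted p by limma = 0.396, or 0.0482 blocked by replicate number). The mTERF proteins, which act in organelle transcription and RNA processing, had 3 members among the genes given a role. AT1G62150 had deposited values of 1.52, 1.74, 1.44 and 1.47 at 20 µE and 2.81, 2.90, 2.33 and 2.20 at 200 µE. These groups were apart, and its normalized difference was 0.38 ± 0.18 (SE, adjusted p by limma = 0.35, or 0.0113 blocked by replicate number). AT1G61990 and AT1G62010 had 0.19 and 0.20, both below 0 in replicates 1 and 2 (−0.12 and −0.25) and above 0 in replicates 3 and 4 (0.51 and 0.65). These genes belong to one family, and their probes could not be shown to exclude each other's transcripts.

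AT1G70200, a plastid protein with an RNA recognition motif, had 0.32 ± 0.25 (SE, adjusted p by limma = 0.609). In the deposited values it passed at 0.83 (adjusted p by limma = 0.0338), where 25.7% of all probes were called higher. That is below the median deposited difference of all probes, 0.99. AT5G65220, a protein of the large plastid ribosomal subunit, was at −0.13 ± 0.14 (SE, adjusted p by limma = 0.712). RAP74, a subunit of the general transcription factor TFIIF, was at −0.61 ± 0.25 (SE, adjusted p by limma = 0.268).

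Of the 7 signalling genes, 6 had a normalized difference below 0 and none passed. Of all probes, with those listed at 0 on some arrays included, 45.9% lay below 0. The signalling group too was put together after its values were seen. It includes CCL, at −0.17, for which a clock-controlled transcript and no signalling role is described here. The group's median was −0.19 in normalized and 0.06 in deposited values, where that of all probes was 0.99 in deposited values. XERICO, a RING-H2 protein that raises abscisic acid levels when overproduced, had deposited values of 3.67, 3.48, 5.58 and 5.62 at 20 µE and 3.25, 2.81, 4.33 and 4.25 at 200 µE. All 4 pairs were lower at 200 µE, while the groups overlapped. The log2 difference was −0.39 ± 0.17 (SE, adjusted p by limma = 0.303, or 0.0778 blocked by replicate number). CML30, a calmodulin-like calcium sensor, had −0.19 ± 0.28 (SE, adjusted p by limma = 0.842). It was called with the replicate block (adjusted p by limma = 0.0209). AT4G32060, an EF-hand protein of calcium control in mitochondria, had −0.21 ± 0.11 (SE, adjusted p by limma = 0.396). AT1G01250, of the AP2/ERF family of transcription factors, was the member above 0, at 0.34 ± 0.16 (SE, adjusted p by limma = 0.32, or 0.00919 blocked by replicate number). The 3 transport genes ran from −0.49 (AT2G38550, of a family that exports fatty acids from plastids; adjusted p by limma = 0.444, or 0.0423 blocked) to 0.60, and none passed.

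Without normalization 8 of the 62 (12.9%) were called by limma, 6 higher and 2 lower, where 27.0% of all probes were. Median centring, which aligns only the middle of each array, called 17 (27.4%), all lower, where 6.16% of all probes were. It moved the median of the 62 to −0.53. The other bright probes moved with them, to −0.55. Cyclic loess called 5 (8.06%), where 5.82% of all probes were. In the fit with the sets as a block 21 (33.9%) were called, where 21.7% of all probes were. Without the probes listed at 0 on an array there were 4 calls (6.67% of 60), where 6.0% of the probes kept were called. Leaving out the lowest 25% of probes gave 3 (4.84%), where 5.35% were. Why the share of the 62 was larger in some of these fits was not tested.

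Normalized differences lay below 0 for 32 of the 62, against 45.9% of all probes. That share includes the probes listed at 0 on some arrays, whereas 60 of the 62 were above 0 on all. Over the probes above 0 on every array the share was not counted. Their median normalized difference was −0.04, so at least as many lay below 0 as above it. In the deposited values 22 of the 62 probes had a difference below 0, against 8.78% of all probes. The median deposited difference of the 62 was 0.32, against 0.99 over all probes and 0.82 over those above 0 on every array. The same median over the 299 other probes that are at least as bright as the dimmest of the 62, named or not, was 0.29, close to that of the 62.

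**Figure D3:**
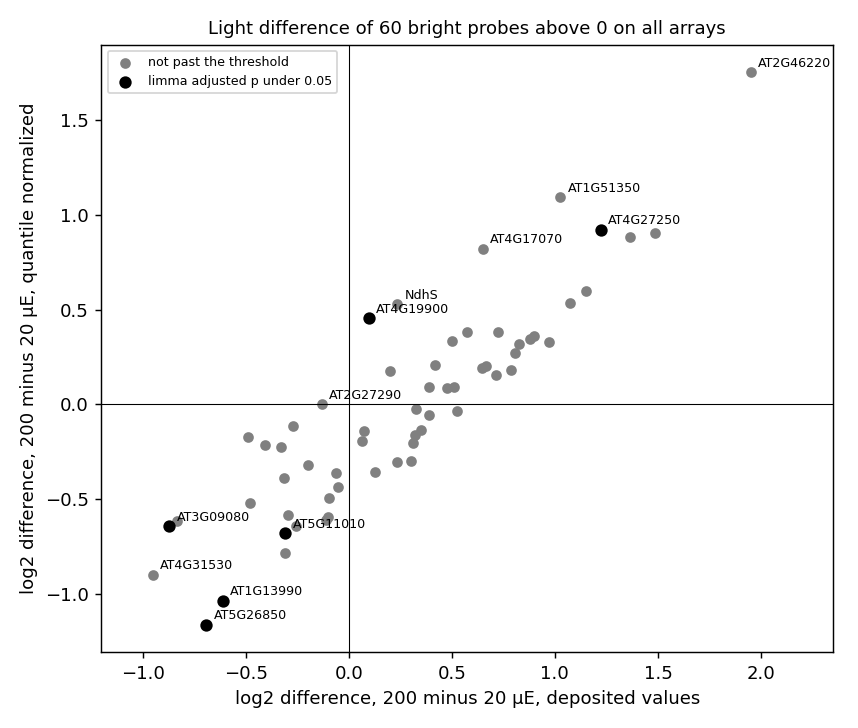
Log2 difference between 200 and 20 µE in deposited values (horizontal) and after quantile normalization (vertical) for the 60 probes above 0 on all arrays, with the 6 called probes in black. AT3G09080, AT1G13990 and AT5G26850 lie below 0 on both axes, AT4G27250 and AT1G51350 above 0 on both, and AT4G19900 near 0 in the deposited values.

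Groups that did not overlap were seen for 4 of the 62 probes on the higher side and 8 on the lower in normalized values, against 5.35% and 8.72% of all probes (14.1% together). In deposited values 12 of the 62 were wholly higher and 3 wholly lower, against 34.1% and 1.74% of all probes. The 3 were AT3G09080, AT1G13990 and AT5G26850. All 4 pairs pointed the same way in normalized values for 20 of the 62 upward and 19 downward, where all probes had 22.0% and 23.8%. In deposited values 26 were upward and 11 downward in all pairs, against 64.3% and 3.78% of all probes.

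The 62 probes together held a smaller part of the array's signal in bright light. Their share of the summed deposited intensity was 12.1%, 12.5%, 10.8% and 11.6% in replicates 1 to 4 at 20 µE and 10.1%, 10.2%, 7.92% and 8.61% at 200 µE. Every 200 µE array was below every 20 µE array, which is given with no test because the members were chosen by brightness. The 3 brightest, AT2G27290, AT4G31530 and AT4G22830, made up 4.70% to 6.67% at 20 µE and 2.97% to 4.90% at 200 µE. AT2G27290 stood at the array maximum in replicates 1 and 2 of both light levels, so it could not rise there. The 7 bright genes left out by the rule also held less, 3.73 ± 1.38% at 20 µE and 2.28 ± 0.68% at 200 µE (SD, n = 4 each). The smaller share is thus not particular to the 62, and its cause was not tested. The summed intensity of the 62 was 338 ± 23.7 in dim light and 320 ± 28.9 in bright light (SD, n = 4 each), while that of all probes was 2897 ± 336 and 3493 ± 136.

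The 2 sets of like arrays, a division read from the values and not made by the study, differed more than the light levels for 37 of the 62 probes. The median absolute log2 difference was 0.54 between the sets and 0.36 between the light levels. AT5G10920, an argininosuccinate lyase of arginine synthesis, had deposited values of 0.0132, 0, 1.75 and 1.88 at 20 µE and 0.248, 0.233, 3.12 and 3.33 at 200 µE. It was bright only in replicates 3 and 4, and its difference of 3.003 rests on the value listed at 0 and on the other near 0. AT2G46220 ran the other way at 20 µE, with 3.08, 3.46, 0.542 and 0.408, against 6.19, 6.40, 3.72 and 3.59 at 200 µE. Its log2 difference was 0.86 in replicates 1 and 2 and 2.65 in replicates 3 and 4, and a difference between these was not tested. AT4G18180, a pectin lyase-like protein, had 1.01, 0.916, 4.97 and 4.13 at 20 µE and 1.64, 1.33, 2.54 and 2.90 at 200 µE, again with the sets apart.

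AT1G24240, of the L19 family of ribosomal proteins, owed its place to 1 replicate number. Its deposited values were 0.181, 0.206, 0 and 8.80 at 20 µE and 0.301, 0.258, 0.227 and 3.49 at 200 µE. Replicate 4 was high in both light levels and the other arrays were dim. Its log2 difference of 1.56 ± 3.01 (SE) therefore says little.

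**Figure D4:**
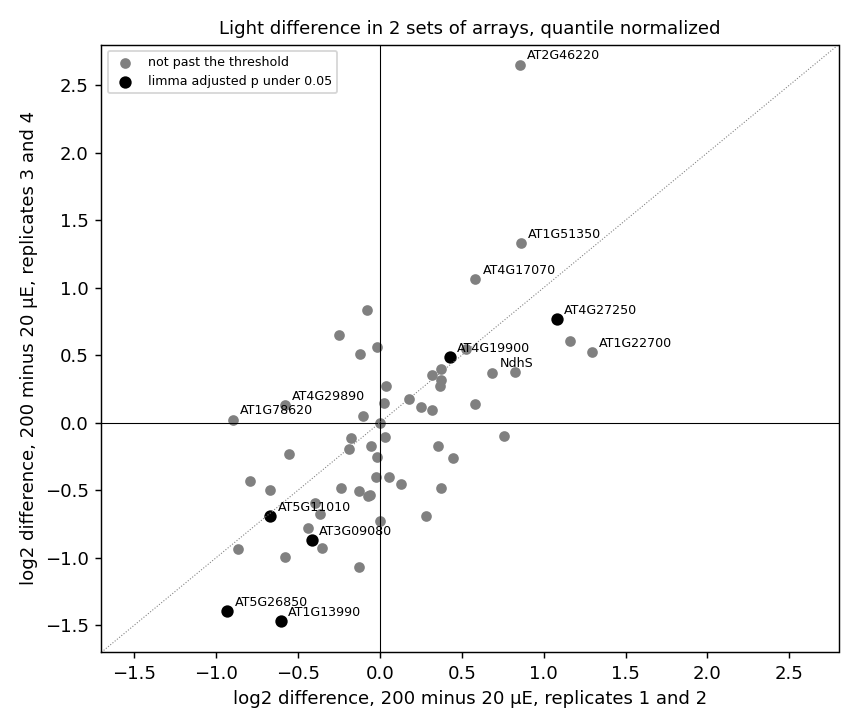
Log2 difference between 200 and 20 µE after quantile normalization in replicates 1 and 2 (horizontal) and in replicates 3 and 4 (vertical) for the 60 probes above 0 on all arrays, with the line of equality dotted. The 6 called probes (black), which were called over these same arrays, have the same sign in both sets. AT2G46220 lies far above the line.

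The light difference had the same sign in both sets for 45 of the 62 probes, and the share over all probes was not computed. All 6 called ones had the same sign too. They were called over these same arrays, so this is no separate support for the calls. AT4G27250 had 1.08 in replicates 1 and 2 and 0.76 in replicates 3 and 4, AT4G19900 had 0.43 and 0.48, and AT5G11010 had −0.67 and −0.69. AT3G09080 differed by −0.41 and −0.87, AT5G26850 by −0.93 and −1.40, and AT1G13990 by −0.61 and −1.47. The spread between arrays of 1 light level was a median SD of 0.36 on the log2 scale for the 60 probes above 0 on all arrays, 0.31 for the 299 other bright probes and 0.42 for the 2533 probes above 0 on all arrays that are not among the 69.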

How the data were processed

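The deposited intensities give 1 value per probe and array for 3439 probes on 8 arrays; their upstream processing by the authors was not stated in the labels or headers. Groups and replicate numbers came from the labels. Zeros were raised to the smallest positive intensity of the same array, followed by quantile normalization and log2. Light levels were compared over all probes by limma 3.58.1 (R 4.3.3; lmFit, eBayes, two-sided), without covariates, and p-values were adjusted by Benjamini-Hochberg with a threshold of 0.05. The fit was tested on simulated data. The members, lists and alternatives were chosen with earlier results of these data known.

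Deviations from the group means correlated at 0.707 to 0.735 between same-numbered arrays, over the 2600 probes above 0 on all arrays. Between arrays of the 2 light levels in the same set but with another number they correlated at 0.444 to 0.462. Between replicates 1 or 2 and replicates 3 or 4 they correlated at −0.623 to −0.556. Taking deviations from a mean of 4 arrays in 2 like sets itself pulls this last correlation below 0. On this evidence of the data alone, a fit with the replicate number as a block was also made; the calls given first come from the fit without it, and blocked values stand beside results whose call they change.

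The platform annotation holds 1562 probes, of which 692 have 1 gene and 870 more than 1. The gene table of assembly TAIR10.1 matched 690 of the 692 and served for names only; no build comes with the values, so coordinates are left out. Genes were named by rule, which gave 27 (among them the called, the brightest, those at the brightness limit and those at 0 or at the maximum), and 14 more were chosen after their values were seen. Alternatives were other normalizations, floors, filters and blocks, single sets, single arrays left out and other rankings of brightness. Sequence features were not analysed here. The number of arrays limits the precision.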

Additional observations from a re-analysis of the deposited data

Results flagged for a closer look

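In 82 groups of 4 arrays examined, for the 41 named genes at each light level, 4 held an array far from the others. Chance gives about 1 in 20 for 4 separate arrays of genes picked without regard to their values. Here the arrays form 2 like sets. Of the 41 genes, 14 were chosen after their values were seen, AT5G65220 and AT1G22700 among them. That rate therefore does not apply to these groups. The gap is given as a part of the group's range on the normalized log2 scale. AT4G17070 was low in replicate 3 at 20 µE, at 3.27 against 10.1 to 12.1 on the others, with a gap of 0.866 of the range. AT1G24240 was high in replicate 4 at 200 µE, at 3.34 against 0.162 to 0.227, a gap of 0.889. AT5G65220 was low in replicate 3 at 200 µE, at 1.03 against 1.43 to 1.53, a gap of 0.841. AT1G22700 was low in replicate 2 at 20 µE, at 0.200 against 1.01 to 1.40, a gap of 0.833. For AT4G17070, AT1G24240 and AT1G22700 the array of the same number at the other light level deviated in the same direction.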

How the results depend on the processing

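limma called 235 of 3439 probes, 927 without normalization, 138 without the lowest 25% of probes, 156 without probes at 0 on any array, 619 with the replicate block, 611 in replicates 3 and 4 alone, 746 with the sets as a block and 140 to 173 without 1 array. Of the 62, 6 were called. The count was 3 without the lowest 25% of probes, 17 with median centring, 16 with the replicate block, 13 in replicates 1 and 2 alone, 20 in replicates 3 and 4 alone, 21 with the sets as a block and 2 to 6 without 1 array. In replicates 1 and 2 alone, 13 of the 62 and 333 of all 3439 probes were called. In replicates 3 and 4 alone the counts were 20 and 611. In both fits the share was larger among the 62 than among all probes, and the cause was not tested. Each fit rests on 2 like arrays per light level, with a median absolute log2 difference of 0.098 to 0.115 over the 62. That spread may be technical. Averaging the arrays of each set, chosen after seeing the data, left 6 probes and 0 of the 62 called. The median difference of the 62, −0.03, became 0.051 with cyclic loess, 0.32 without normalization, −0.53 with median centring, −0.10 in replicates 3 and 4 alone and −0.082 to 0.0073 without 1 array. The brightest 1 in 20 would hold 28 genes and the brightest 1 in 5 would hold 131, with median differences of −0.13 and 0.05. Ranking by the mean at 20 µE gave a median of −0.18 with 6 called, and by the mean at 200 µE 0.17 with 4 called, so the sign of the median depends on the light level that ranks the genes.

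Directions turned with cyclic loess for AT3G32930 (0.0090) and ATSPS4F (0.051). Without normalization they turned for CML30 (0.064), AT3G32930 (0.53), ATSPS4F (0.39) and AT5G65220 (0.35). With median centring they turned for AT4G22830 (−0.64), AT4G17070 (−0.19), AT4G19900 (−0.75), NdhS (−0.61), AT2G46630 (−0.13), AT2G19280 (−0.34), AT1G62150 (−0.12), AT1G70200 (−0.018), AT1G61990 (−0.20) and AT1G62010 (−0.18). A pseudocount of 0.1 turned AT1G24240 (−0.15). In replicates 1 and 2 alone CCL (0.056), AT1G24240 (−0.62), AT3G32930 (0.033), AT4G18180 (0.00075), ATSPS4F (0.37), AT1G61990 (−0.12) and AT1G62010 (−0.25) turned, and in replicates 3 and 4 alone AT4G29890 (0.13) and AT4G22370 (−0.10). Without 1 array, AT1G24240 ranged from −1.21 to 3.48, AT1G62010 from −0.026 to 0.43, AT2G46630 from −0.021 to 0.33, AT4G22830 from −0.11 to 0.42 and ATSPS4F from −0.21 to 0.040. The cause was not tested in any of these. AT4G27250 and AT5G26850 kept their direction and call in all 8 fits without 1 array and with the replicate block, but neither call held with the sets averaged. AT4G27250 also lost its call with median centring and in replicates 1 and 2 alone, and AT5G26850 without normalization. AT4G19900, AT5G11010 and AT3G09080 lost theirs when probes at 0 or the lowest 25% of probes were left out. Their log2 differences were unchanged in both of these fits, while the SE of each was larger than in the fit over all probes. These calls therefore depend on which other probes enter the fit, and the cause was not tested. The replicate block changed the calls of 14 of the 41 named genes, each stated with its gene, and no other.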
